A study of Saccharomyces cerevisiae with 6 samples.

Results

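The 32 genes described here encode proteins of the small subunit of the yeast mitochondrial ribosome (mtSSU), all of them transcribed in the nucleus. They were chosen by name, as the nuclear-encoded mtSSU proteins in the study's nomenclature, and all 32 were found among the 7126 genes of the table. The mtSSU protein mS38 (QRI5), which is also encoded in the nucleus, is described with the partners of the subunit. Of the 32 proteins, 19 carry a name with u or b because they have a counterpart in the bacterial ribosome. The other 13 carry an m and are specific to mitochondria. All 32 passed the minimum of 10 counts in at least 3 libraries, and their counts per library lay between 187 (FYV4, glucose) and 4341 (MRPS12, glycerol).

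The cultures were of wild-type BY4741, a haploid S288c derivative, and were kept overnight in synthetic complete (SC) medium with glycerol or with glucose as the carbon source, with 3 biological replicates of each. Glycerol can be used only by respiration, whereas glucose is fermented. The RNA was poly(A)-selected and sequenced without strand information. Both groups share the strain and the medium apart from the carbon source, and the study's general methods, written for rich medium, keep cultures in mid-log growth, while no density is stated for the SC cultures used for RNA.

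The mitochondrial ribosome (mitoribosome) makes the few proteins encoded by mitochondrial DNA (mtDNA), nearly all of them core subunits of the respiratory chain and ATP synthase. Its small subunit binds the mRNA and holds the decoding center, where codons are matched to tRNAs. It is built from the 15S rRNA and the protein Var1, both made inside mitochondria, and from many proteins that are made in the cytosol and imported. In bacteria the small subunit is divided into a head, a body and a platform, and the proteins with bacterial counterparts are grouped here by the place of that counterpart.

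Library totals lay between 15289163 and 20038052 counts. Genes of cytosolic ribosomal proteins took 5.45 to 6.47% of all counts in glycerol and 24.1 to 27.5% in glucose, so that the rest of the transcripts together held a larger share in glycerol. Values are therefore given as normalized CPM, counts relative to a library size that TMM has adjusted, a scaling that corrects for such a shift. The correction assumes that most transcripts stay level, but 81.8% of the 6330 tested genes passed the test of a difference. With library totals alone, the log2 fold changes of all tested genes had a median of 0.52 in place of 0.03, and the mtSSU transcripts shifted with them. These are relative levels in bulk RNA and give no amount per cell. As a check of the strain, LEU2, MET17 and URA3, which are deleted in BY4741, had 0 counts in every library, and HIS3, of which the strain keeps a part, had 662 to 1216. The 6 a-specific mating genes of this MATa strain summed to 269.5 to 273 CPM in glycerol and 2268 to 2735 CPM in glucose. The 6 did not move alike. STE2 and MFA2 had the lowest log2 fold changes, glycerol over glucose, at -4.51 and -4.31, while AGA2 was nearly level at -0.06. A set of 4 alpha-specific genes summed to 100.1 to 115 CPM in glycerol and 41.8 to 53.5 CPM in glucose. The part of these mating-gene differences in the mtSSU values was not tested.

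The mtSSU transcripts did not move as a block. By edgeR's quasi-likelihood test, with p adjusted over the whole table by Benjamini-Hochberg and called under 0.05, 15 of the 32 (46.9%) were higher in glycerol and 9 (28.1%) lower, while 8 did not pass. Of all tested genes 41.7% were higher and 40.1% lower. The median log2 fold change, glycerol over glucose, was 0.21 for the 32 genes against 0.03 for all tested genes, and the values ran from -1.31 for MRPS8 to 1.90 for EHD3. Standard errors lay between 0.095 and 0.147, so most neighbours in this order do not differ beyond their error, while the ends of it are far apart. All 15 rises were also called with library totals alone, as were 3 of the 9 falls, those of RSM26, MRP21 and MRPS8. With that scaling 23 transcripts were higher and 3 lower, beside 57.0% and 26.1% of all tested genes (83.1% in either direction). DESeq2 gave 15 and 9 members again, where it called 38.6% of all its genes higher and 37.3% lower (75.8% together). In 17 members every glycerol library lay above every glucose library and in 9 below, as in 43.0% and 40.8% of all tested genes (83.8% together). A fold of 2 or more was reached by 4 members (24.7% of all tested genes), and a fold of 0.5 or less by MRPS8 alone (21.5%). The remaining 6 falls (MRPS28, MRPS16, RSM18, SWS2, RSM27 and MRP2) are falls relative to the average transcript only.

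**Figure D1:**
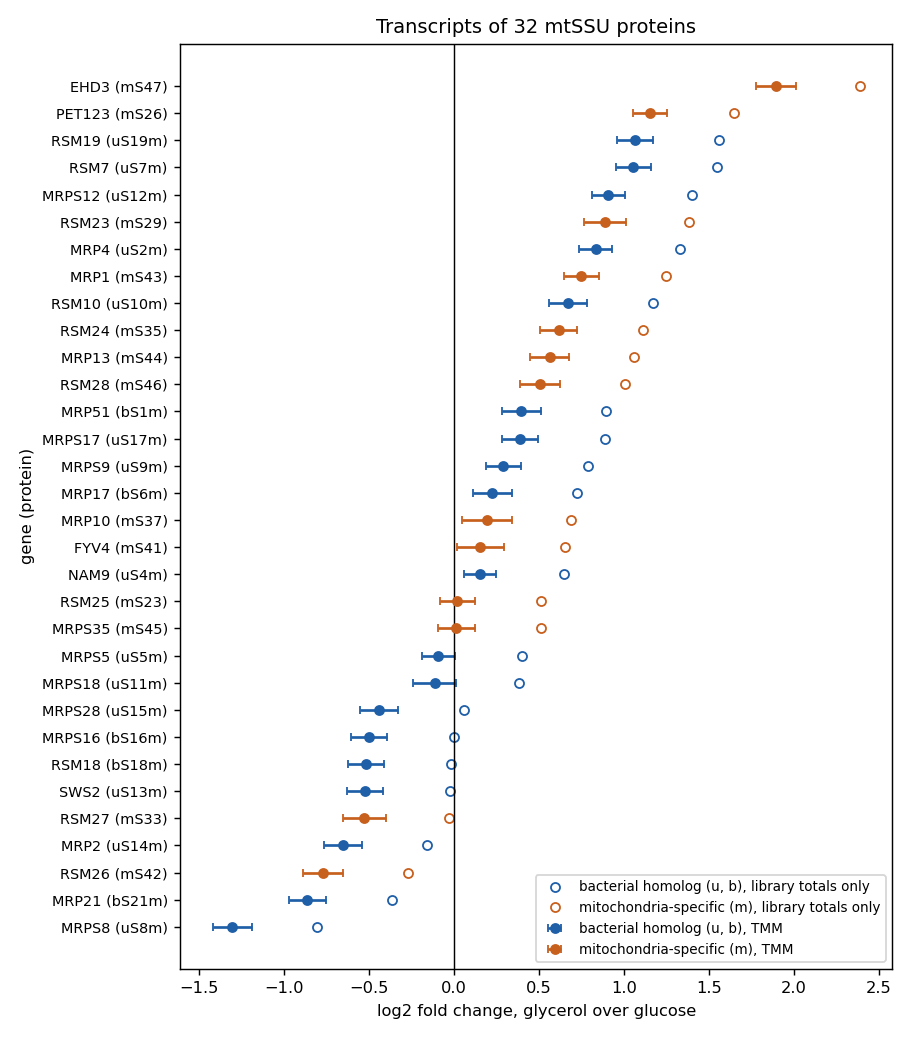
The log2 fold change of each of the 32 mtSSU transcripts, glycerol over glucose, with its standard error (filled points, TMM scaling) and the same value with library totals only (open points), colored by whether the protein has a bacterial counterpart. The filled points run from 1.90 for EHD3 to -1.31 for MRPS8, and the open points lie to the right of the filled ones for every gene.

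The promoters of 2 transcripts that rose and 2 that fell are shown, taken from near the ends of this order. EHD3 and RSM19 ranked 1 and 3 by fold change, and MRP21 and MRPS8 ranked 31 and 32. The window of PET123, ranked 2, is not printed and held 1 match to CCAAT. Each runs from 250 bases before to 50 bases after the start codon and was read from the RefSeq R64 genome, in which all 32 genes have the same start and end as in the table. Capitals mark CCAAT (the core bound by the Hap complex, an activator of respiratory genes) and AGGGG (bound by the stress factors Msn2 and Msn4) on either strand. They also mark, on either strand, CC followed after 6 bases by CGG, a spaced pattern to which no factor is assigned here. The EHD3 and RSM19 promoters belong to rises, and the MRPS8 and MRP21 promoters to falls.
EHD3 (chrIV:524664-524963, minus strand): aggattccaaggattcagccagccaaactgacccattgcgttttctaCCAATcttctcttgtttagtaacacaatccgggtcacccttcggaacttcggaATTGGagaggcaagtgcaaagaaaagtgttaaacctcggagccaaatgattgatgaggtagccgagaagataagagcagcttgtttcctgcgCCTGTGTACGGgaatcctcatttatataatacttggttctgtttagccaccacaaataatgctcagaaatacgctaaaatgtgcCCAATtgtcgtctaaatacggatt
RSM19 (chrXIV:695278-695577, minus strand): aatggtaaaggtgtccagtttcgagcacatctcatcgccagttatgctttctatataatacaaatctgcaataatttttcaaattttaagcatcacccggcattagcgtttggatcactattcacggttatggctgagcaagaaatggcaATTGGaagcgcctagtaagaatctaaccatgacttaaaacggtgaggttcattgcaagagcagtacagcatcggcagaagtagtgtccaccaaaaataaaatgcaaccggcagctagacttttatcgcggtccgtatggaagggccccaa
MRPS8 (chrXIII:571998-572297, plus strand): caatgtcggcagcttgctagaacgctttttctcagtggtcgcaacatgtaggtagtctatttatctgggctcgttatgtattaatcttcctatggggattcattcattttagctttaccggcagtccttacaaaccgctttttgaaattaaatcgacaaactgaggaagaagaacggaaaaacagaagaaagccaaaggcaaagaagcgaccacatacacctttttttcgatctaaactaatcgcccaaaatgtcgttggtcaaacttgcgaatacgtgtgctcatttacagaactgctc
MRP21 (chrII:48575-48874, plus strand): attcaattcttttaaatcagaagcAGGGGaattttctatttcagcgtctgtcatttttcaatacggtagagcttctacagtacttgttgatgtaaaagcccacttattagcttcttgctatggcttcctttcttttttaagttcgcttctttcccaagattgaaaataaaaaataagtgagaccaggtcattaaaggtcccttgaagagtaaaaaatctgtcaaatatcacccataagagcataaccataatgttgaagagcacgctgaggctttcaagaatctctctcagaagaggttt
The window of EHD3 held 3 matches to CCAAT, 1 of them after the start codon, and 1 to the spaced CC and CGG pattern. That of RSM19 held a single CCAAT, that of MRPS8 no match and that of MRP21 a single AGGGG.

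Over all members, CCAAT stood in the window of 15 of 32 promoters (46.9%), beside 43.3% of 6001 promoters cut in the same way. Among the members that rose it was in 11 of 15, and among those that fell in 1 of 9, MRP2. Counting only the bases before the start codon, these were 8 of 15 and 1 of 9, against 35.4% of all promoters. AGGGG was found in 5 member windows (15.6%, against 21.6% of all), among them 1 of the 15 that rose and 3 of the 9 that fell. These 3 are MRPS16, MRP21, whose match lies inside MAP2, and RSM26, whose match lies after the start codon. Before the start codon AGGGG was in 3 member windows (9.38%, against 18.8% of all), 1 of the 15 and 2 of the 9 among them. The spaced CC and CGG pattern was in 3 windows (9.38%, against 9.02%), those of EHD3, RSM28 and MRPS28. Shares among all genes called higher or lower were not counted, so the split between members that rose and fell has no matching background and was not tested. A match is a description of the letters, and binding was not measured.

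Among the nuclear-encoded mtSSU proteins, the study's structural comparison of glucose with glycerol singled out mS47 and mS46 and parts of uS10m, mS45 and mS35. It also followed uS5m, which spans the subunit between these proteins and whose change at the C-terminal end it describes as shared by both forms. The transcripts of these 6 proteins were set side by side. EHD3 encodes mS47, a protein annotated as 3-hydroxyisobutyryl-CoA hydrolase, an enzyme of valine breakdown. The EHD3 transcript (YDR036C, chromosome IV from 523211 to 524713) was at 121, 135 and 152 CPM in the glycerol libraries, against 35.4, 33.5 and 40.7 CPM in the glucose libraries. The groups are far apart, and the lowest glycerol library lies well above the highest glucose library. The log2 fold change was 1.90 (standard error 0.118, adjusted p = 8.1e-10), a fold of 3.72.

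RSM28 encodes mS46, a protein with no bacterial counterpart. Its transcript had 92.2, 104 and 105 CPM in glycerol, against 80.0, 72.9 and 59.1 CPM in glucose, a fold of 1.42 (log2 fold change 0.50, standard error 0.117, adjusted p = 0.0010). The groups do not overlap, but the gap is narrow beside that of EHD3. The ratio of EHD3 to RSM28 CPM, which no scaling of the libraries can alter, was 1.31, 1.29 and 1.46 in glycerol, against 0.443, 0.459 and 0.688 in glucose. EHD3 is the longer gene, and per kilobase of gene the levels in glycerol were close, at 90.4 ± 10.6 CPM per kb for EHD3 and 92.3 ± 6.42 CPM per kb for RSM28, against 24.3 ± 2.48 and 65.1 ± 9.74 CPM per kb in glucose (SD, n = 3 each).

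RSM10 encodes uS10m, a protein of the head whose bacterial counterpart also acts in transcription antitermination. It had 128, 133 and 149.8 CPM in glycerol, against 87.4, 94.8 and 75.9 CPM in glucose, with no overlap between groups (log2 fold change 0.67, standard error 0.110, adjusted p = 4.3e-05). RSM24 (mS35) had 62.5, 73.8 and 80.9 CPM in glycerol, against 48.9, 47.2 and 45.8 CPM in glucose, at 0.61 on the log2 scale (standard error 0.110, adjusted p = 1.0e-04). Both transcripts were thus higher in every glycerol library. MRPS35 (mS45) did not pass the test, with 62.4, 63.9 and 57.1 CPM in glycerol, against 68.1, 60.6 and 53.0 CPM in glucose (log2 fold change 0.01, standard error 0.110, adjusted p = 0.92). Nor did MRPS5 (uS5m), which in bacteria lines the mRNA entry with uS4, with 48.9, 52.7 and 47.5 CPM in glycerol, against 52.7, 52.1 and 54.3 CPM in glucose (log2 fold change -0.09, standard error 0.097, adjusted p = 0.38). For these 2 genes the libraries of the groups are interleaved. With library totals alone both were called higher in glycerol, at 0.51 and 0.40.

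**Figure D2:**
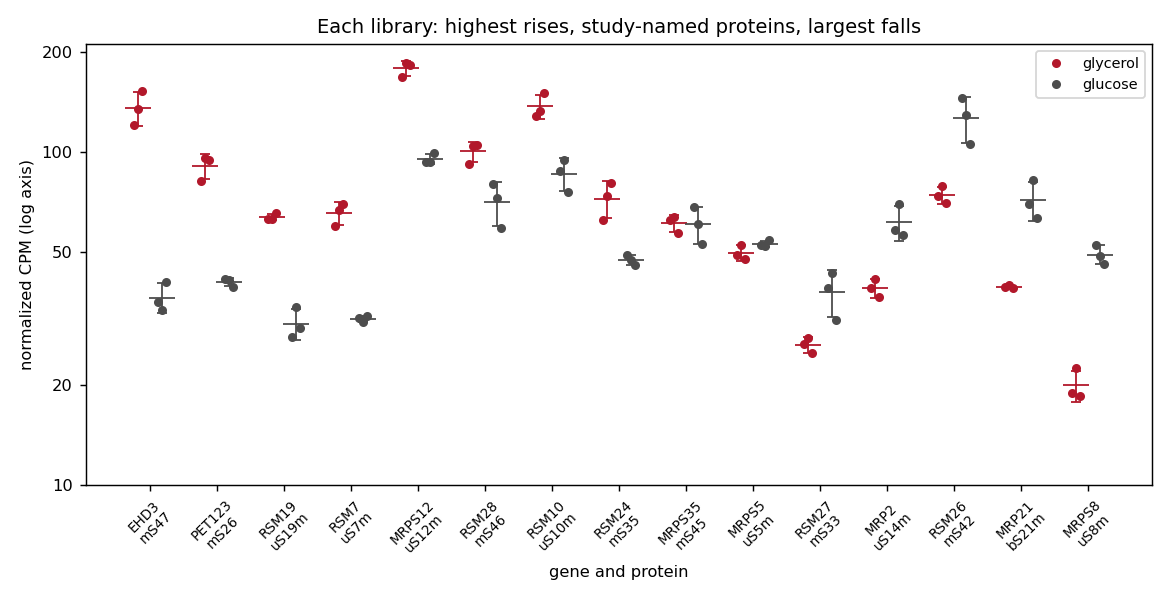
Normalized CPM (log axis) of 15 mtSSU transcripts in each glycerol library (red) and each glucose library (gray), with the mean and SD over 3 libraries, for the 5 highest fold changes, 5 further proteins named in the study's structures and the 5 lowest fold changes. The red points lie above all gray points from EHD3 to RSM24, mix with them for MRPS35 and MRPS5, and lie below them from RSM27 to MRPS8.

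Of the 6 proteins of the head, 4 had higher transcripts in glycerol and 2 had lower ones, where 41.7% of all tested genes were higher and 40.1% lower. RSM19 encodes uS19m, which sits at the top of the head next to the large subunit, and had 63.0, 63.0 and 65.4 CPM in glycerol, against 27.8, 34.1 and 29.6 CPM in glucose (log2 fold change 1.06, standard error 0.107, adjusted p = 1.9e-07). RSM7 encodes uS7m, whose bacterial counterpart starts the assembly of the head, and had 59.9, 66.8 and 69.8 CPM in glycerol, against 31.6, 30.9 and 32.1 CPM in glucose (log2 fold change 1.05, standard error 0.103, adjusted p = 1.4e-07). The folds were 2.09 and 2.08, and the groups are widely separated in both. Of the RSM7 gene, 317 of 744 bases are shared with YJR114W on the opposite strand, which itself received 24 to 38 counts in glycerol and 8 to 13 in glucose, and reads in that stretch cannot be assigned by strand. RSM10 is given above. MRPS9 (uS9m), whose bacterial counterpart reaches the P-site tRNA with its tail, had a small rise (log2 fold change 0.29, adjusted p = 0.017) that was lost without glucose replicate 2 (adjusted p = 0.069) or without glycerol replicate 2 (adjusted p = 0.059).

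The other 2 head proteins went the opposite way. MRP2 encodes uS14m and had 38.9, 41.7 and 36.5 CPM in glycerol, against 58.1, 69.9 and 56.3 CPM in glucose (log2 fold change -0.65, standard error 0.111, adjusted p = 6.0e-05). SWS2 encodes uS13m, a protein of the contact with the large subunit, and had 40.5, 45.6 and 46.4 CPM in glycerol, against 66.0, 67.2 and 57.2 CPM in glucose (log2 fold change -0.52, adjusted p = 3.1e-04). All glycerol libraries lie below all glucose libraries for both genes. With library totals alone their values were -0.16 and -0.03 and no longer called.

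Of the 6 proteins of the body, 2 transcripts were higher, 2 were lower and 2 did not pass the test, near the shares of 41.7% and 40.1% over all tested genes. MRPS12 encodes uS12m, which lies in the decoding center. It had 168, 185 and 183 CPM in glycerol, against 93.4, 92.9 and 99.1 CPM in glucose, the highest CPM per length of all members in glycerol (log2 fold change 0.91, standard error 0.097, adjusted p = 4.2e-07). MRPS17 (uS17m) had a smaller rise, at 92.3, 86.7 and 82.0 CPM in glycerol, against 67.5, 72.9 and 59.1 CPM in glucose (log2 fold change 0.39, adjusted p = 0.0034). RSM19 and MRPS12 are neighbours on chromosome XIV, with RSM19 upstream on the same strand and 229 bases between them, and both rose.

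MRPS8 encodes uS8m, whose bacterial counterpart binds the rRNA early in assembly, and gave the largest fall of the 32. It had 18.8, 22.4 and 18.5 CPM in glycerol, against 52.5, 48.8 and 46.2 CPM in glucose, a fold of 0.405 (log2 fold change -1.31, standard error 0.115, adjusted p = 4.2e-08). The groups are widely separated, and the fall held with library totals alone at -0.81. MRPS16 (bS16m) fell less, with 65.0, 75.1 and 63.8 CPM in glycerol, against 101, 101 and 86.5 CPM in glucose (log2 fold change -0.50, adjusted p = 5.0e-04). For NAM9 (uS4m), first known as a suppressor of mitochondrial nonsense mutations, the log2 fold change was 0.15 (standard error 0.095, adjusted p = 0.16), although each glycerol library, at 75.4 to 81.2 CPM, lay above each glucose library, at 67.5 to 74.1 CPM. MRPS5, the sixth of the body, is given above.

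None of the 5 platform proteins had a transcript called higher, and 3 were lower, against 41.7% and 40.1% of all tested genes. MRP21 encodes bS21m and had 39.4, 39.8 and 39.0 CPM in glycerol, against 69.8, 82.1 and 63.3 CPM in glucose (log2 fold change -0.86, standard error 0.110, adjusted p = 2.9e-06). RSM18 (bS18m) had 61.2, 64.4 and 60.8 CPM in glycerol, against 91.6, 98.9 and 76.5 CPM in glucose (log2 fold change -0.52, adjusted p = 4.2e-04). MRPS28 (uS15m) had 35.8, 40.9 and 32.2 CPM in glycerol, against 49.7, 51.2 and 46.8 CPM in glucose (log2 fold change -0.44, adjusted p = 0.0019). In these 3 genes no glycerol library reached the level of a glucose library. MRP17 encodes bS6m, which in bacteria forms a pair with bS18, and its log2 fold change was 0.22 (standard error 0.114, adjusted p = 0.084), against -0.52 for its partner RSM18. MRP17 was called higher when glucose replicate 1 (adjusted p = 0.035), glycerol replicate 1 (adjusted p = 0.0496) or glycerol replicate 3 (adjusted p = 0.0491) was left out, and with the replicate number as a block (adjusted p = 0.0498), where 42.0% of all tested genes were higher, 40.6% lower and 82.6% either. MRPS18 (uS11m) was at -0.12 (standard error 0.129, adjusted p = 0.41), since its glucose libraries spread from 77.1 to 116 CPM around the glycerol ones at 86.1 to 92.8 CPM. Without glucose replicate 3 it was called lower, at -0.26 (adjusted p = 0.031). With library totals alone MRP17 and MRPS18 were called higher and only MRP21 of the 5 stayed lower.

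The remaining proteins with a bacterial counterpart, uS2m and bS1m, both had higher transcripts in glycerol. MRP4 (uS2m), which in bacteria joins the head to the body, had 109, 115 and 119.7 CPM in glycerol, against 60.5, 65.3 and 67.4 CPM in glucose (log2 fold change 0.83, standard error 0.098, adjusted p = 1.2e-06). MRP51 (bS1m), known for its link to the leaders of mitochondrial mRNAs, had 79.2, 97.6 and 97.5 CPM in glycerol, against 75.3, 70.0 and 63.2 CPM in glucose (log2 fold change 0.40, adjusted p = 0.0044). The gap between the groups is wide for MRP4 and narrow for MRP51.

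Of the 13 mitochondria-specific proteins 7 had higher transcripts in glycerol, 2 had lower ones and 4 were not past the threshold, where 41.7% of all tested genes were higher and 40.1% lower. PET123 encodes mS26, which is linked genetically to the translation of the COX3 mRNA, and stood behind EHD3 in the order. It had 81.7, 95.6 and 94.4 CPM in glycerol, against 41.5, 41.3 and 39.4 CPM in glucose (log2 fold change 1.15, standard error 0.102, adjusted p = 4.5e-08). RSM23 encodes mS29, the yeast counterpart of the human GTP-binding protein DAP3, and had 84.5, 88.2 and 96.4 CPM in glycerol, against 41.6, 45.1 and 58.8 CPM in glucose (log2 fold change 0.89, standard error 0.125, adjusted p = 8.5e-06). Both were clearly separated between the groups. MRP13 (mS44) had 63.8, 58.0 and 61.0 CPM in glycerol, against 34.9, 43.2 and 45.7 CPM in glucose (log2 fold change 0.56, adjusted p = 3.1e-04).

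RSM26 (mS42) and MRP1 (mS43) belong to the superoxide dismutase family by sequence and lie next to each other in the mtSSU, and their transcripts moved in opposite directions. MRP1 had 93.4, 94.5 and 106 CPM in glycerol, against 55.4, 64.3 and 55.1 CPM in glucose (log2 fold change 0.75, standard error 0.104, adjusted p = 7.8e-06). RSM26 had 73.6, 78.7 and 70.2 CPM in glycerol, against 145, 129 and 105 CPM in glucose (log2 fold change -0.77, standard error 0.119, adjusted p = 2.2e-05). The ratio of MRP1 to RSM26 is free of the scaling between libraries and was 1.27, 1.20 and 1.51 in glycerol, against 0.382, 0.498 and 0.524 in glucose. The ratio was higher in every glycerol library than in any glucose library. It is not corrected for length, and per kilobase the pair stood at 101 ± 7.13 (MRP1) and 92.6 ± 5.39 CPM per kb (RSM26) in glycerol, against 60.3 ± 5.37 and 158 ± 24.9 CPM per kb in glucose (SD, n = 3 each). On the log2 scale the ratios differed by 1.51 (standard error 0.172, n = 3 each). The two-sided exact permutation test gave p = 0.1, the smallest value 3 against 3 libraries can reach, and the pair was chosen with these values known.

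The other mitochondria-specific member that fell was RSM27 (mS33), with 26.6, 27.6 and 24.9 CPM in glycerol, against 39.1, 43.4 and 31.4 CPM in glucose (log2 fold change -0.53, adjusted p = 0.0012). The transcripts of MRP10 (mS37), FYV4 (mS41), RSM25 (mS23) and MRPS35 had log2 fold changes between 0.01 and 0.19 with adjusted p from 0.24 to 0.92. RSM25 was the steadiest, with 30.7, 33.3 and 31.6 CPM in glycerol and 31.0, 31.5 and 31.8 CPM in glucose. All 4 were called higher with library totals alone, at 0.51 to 0.69.

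The ranges of the classes overlapped in part. MRPS8 and MRP21 lay below every mitochondria-specific member, and EHD3 and PET123 above every member with a bacterial counterpart. For MRP21 (-0.86, next to RSM26 at -0.77) and PET123 (1.15, next to RSM19 at 1.06) the gap is smaller than the standard errors, 0.102 to 0.119. The 19 proteins with a bacterial counterpart had a median log2 fold change of 0.15, with 8 higher (42.1%) and 7 lower (36.8%), shares close to the 41.7% and 40.1% of all tested genes. The 13 mitochondria-specific proteins had a median of 0.50, with 7 higher (53.8%) and 2 lower (15.4%). The difference of the medians, bacterial counterpart minus mitochondria-specific, was -0.35, and -0.36 with library totals alone. It was -0.60 when RSM7 and MRP4, whose genes overlap another gene, were left out. Both are rises in the class with a bacterial counterpart (1.05 and 0.83), and MRP4 shares only 2 of its 1185 bases. These values describe the lists, and no test of the difference was made. Within the first class, the 14 proteins shared by all ribosomes (u) had a median of 0.22, and the 5 found in bacteria only (b) a median of -0.50. These medians were 0.72 and -0.0035 with library totals alone.

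The summed counts show the classes without any scaling between libraries. The mitochondria-specific genes together took 38.4, 38.1 and 39.4% of the mtSSU counts in glycerol, against 33.5, 33.2 and 34.1% in glucose, with no overlap. EHD3 alone took 5.91 ± 0.498% of the mtSSU counts in glycerol and 1.93 ± 0.312% in glucose (SD, n = 3 each). Without EHD3 the shares were 34.8 ± 0.415% in glycerol and 32.3 ± 0.279% in glucose, a smaller gap and still without overlap. RSM26 went the other way, at 3.38, 3.34 and 2.98% in glycerol, against 7.40, 6.54 and 5.91% in glucose, where it was the largest single share on average. Over the 32 genes, the share of 11 was higher in every glycerol library than in any glucose library, the share of 13 was lower, and that of 8 overlapped. The shares divide a common sum, so a share can fall where the CPM stays level. RSM25 and MRPS35, at log2 fold changes of 0.02 and 0.01, were among the 13. These counts have no counterpart over all tested genes. All 32 together made up 0.260 to 0.279% of all counts in glycerol and 0.154 to 0.164% in glucose, and in normalized CPM 2294 ± 103 in glycerol and 1904 ± 107 in glucose (SD, n = 3 each), a ratio of 1.21.

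**Figure D3:**
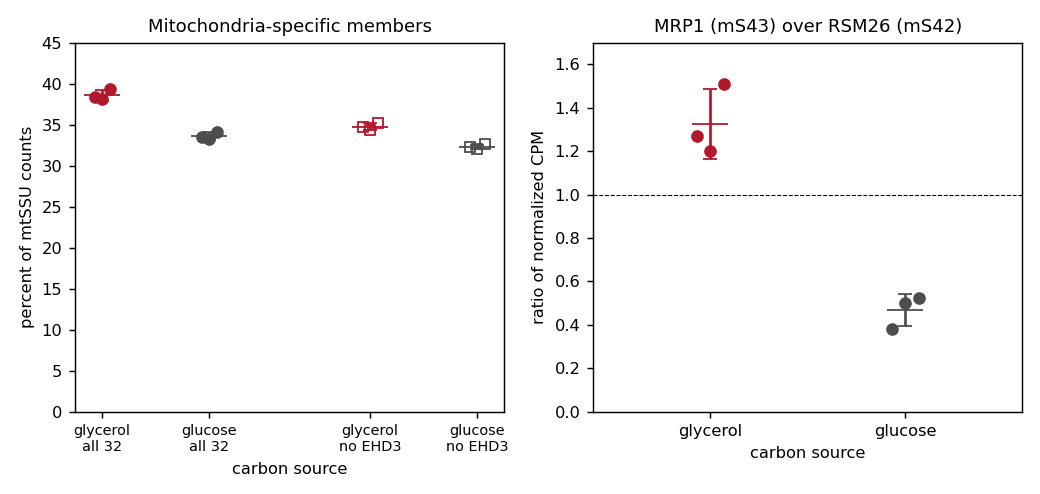
Left, percent of all mtSSU counts that fell on the mitochondria-specific genes in each glycerol library (red) and glucose library (gray), with all 32 genes (circles) and without EHD3 (squares). Right, the ratio of MRP1 to RSM26 normalized CPM in each library, not corrected for gene length and with a dashed line at 1, where the glycerol libraries lie between 1.20 and 1.51 and the glucose libraries between 0.382 and 0.524, bars being the mean and SD over 3 libraries.

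Gene length moved with the classes. The median length was 612 bases for the genes with a bacterial counterpart and 960 bases for the mitochondria-specific ones. Of the 16 shorter members 5 were higher and 7 lower, and of the 16 longer members 10 were higher and 2 lower. Among all tested genes up to the same length 36.8% were higher and 43.0% lower, and among the longer ones 44.0% and 38.7%. Scaled by library totals alone, the shorter members were 9 higher and 2 lower, and the longer ones 14 higher and 1 lower. With that scaling 49.7% of all tested genes up to the same length were higher and 31.7% lower. Among the longer ones 60.5% were higher and 23.4% lower. Length and log2 fold change correlated across the 32 genes, which share their libraries, at a Spearman rho of 0.40, against 0.09 across all 6330 tested genes. The part of length in the difference between the classes was not tested.

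The levels of the transcripts differed widely between genes. Per kilobase of gene, the mean level in glycerol ran from 40.1 CPM per kb (RSM25) to 386 CPM per kb (MRPS12), a range of 9.63-fold. In glucose it ran from 24.3 CPM per kb (EHD3) to 263 CPM per kb (MRPS16), a range of 10.8-fold. The spread between genes on the log2 scale was 0.755 in glycerol and 0.882 in glucose (SD over 32 genes). In glycerol MRPS12 was followed by RSM19 at 231 ± 5.01 and RSM10 at 224 ± 18.4 CPM per kb (SD, n = 3), which do not differ beyond their spread. In glucose MRPS16, at 263 ± 22.8 CPM per kb, was followed by RSM18 at 213 ± 27.3 and MRPS12 at 206 ± 7.43 CPM per kb. The spreads of RSM18 and MRPS12 overlap, and those of MRPS16 and RSM18 just meet. The order of the levels was partly kept, with a Spearman rho of 0.69 between glycerol and glucose over the 32 genes, a description across genes that share libraries. The largest moves in rank were those of MRPS8, which was 30th in glycerol and 13th in glucose, of EHD3, which was 18th in glycerol and 32nd in glucose, and of MRP21, which was 23rd in glycerol and 9th in glucose.

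**Figure D4:**
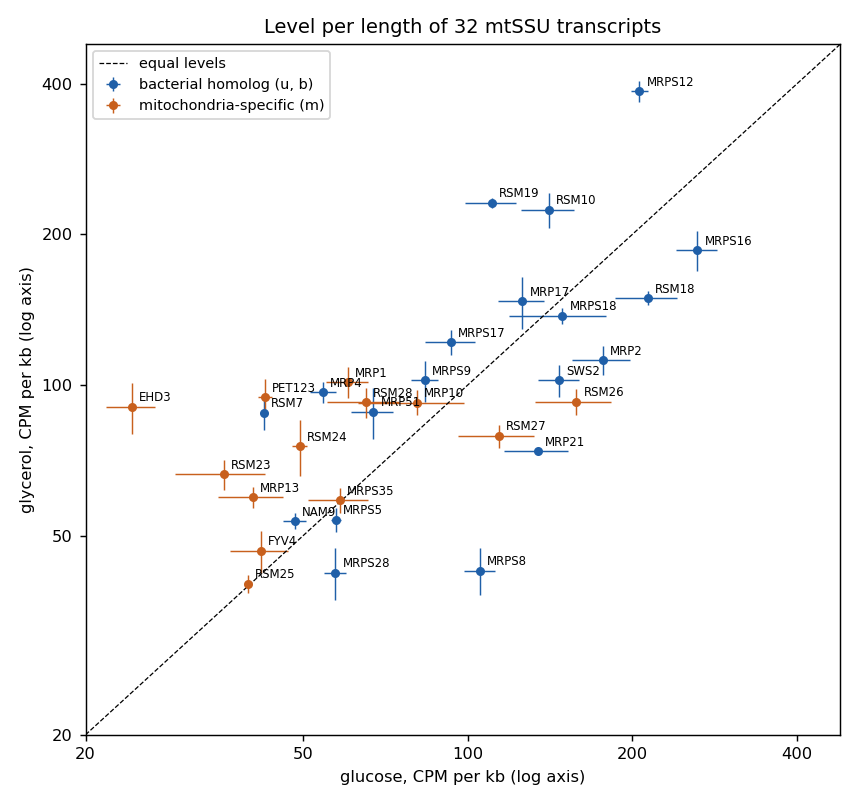
Mean level per length of each mtSSU transcript in glycerol (y axis) against glucose (x axis), in normalized CPM per kb on log axes, with SD over 3 libraries as bars and a dashed line of equal levels. EHD3 lies farthest above the line, at 90.4 CPM per kb in glycerol and 24.3 in glucose, and MRPS8 farthest below it, at 42.6 in glycerol and 105 in glucose.

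Partners of the subunit were drawn from a separate list. QRI5 encodes mS38 and had 54.8, 62.7 and 57.1 CPM in glycerol, against 38.5, 35.0 and 31.2 CPM in glucose (log2 fold change 0.74, standard error 0.110, adjusted p = 1.7e-05). The transcripts of the assembly factors RSM22 and GEP3 were modestly higher, at log2 fold changes of 0.34 (adjusted p = 0.011) and 0.43 (adjusted p = 0.0023). CCM1, a chaperone of 15S rRNA maturation, had 84.0, 80.0 and 78.0 CPM in glycerol, against 92.1, 76.6 and 59.4 CPM in glucose, and did not pass the test (log2 fold change 0.09, standard error 0.132, adjusted p = 0.56). YMR31, once taken for an mtSSU protein and known as a subunit of the alpha-ketoglutarate dehydrogenase complex, had 139, 168 and 149.7 CPM in glycerol, against 62.6, 76.0 and 50.8 CPM in glucose (log2 fold change 1.27, adjusted p = 3.6e-07). The products of mtDNA are poorly caught by poly(A) selection. VAR1 had 0 counts in all libraries, which allows up to 0.126 to 0.227 CPM per library by counting error alone (3 counts), and the 15S rRNA had 49 to 94 counts per library in glycerol and 6 to 16 in glucose.

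Beside the mtSSU, the 41 proteins of the large subunit (mtLSU) had a median log2 fold change of -0.11, with 12 transcripts higher (29.3%) and 16 lower (39.0%), beside 41.7% and 40.1% of all tested genes, and a like spread between genes (SD 0.708, against 0.706 for the mtSSU). With library totals alone the mtLSU median was 0.39, with 26 higher (63.4%) and 4 lower (9.76%). All tested genes shifted too with that scaling, to a median of 0.52 with 57.0% higher and 26.1% lower. The mtLSU median was thus below that of all tested genes with either scaling. The 56 genes of the cytosolic small subunit moved 1 way, since all 56 fell, with log2 fold changes between -4.01 and -1.21 and a median of -2.69. With library totals alone all 56 were still lower. The 2 kinds of small subunit thus had different directions, mixed for the mtSSU and uniform for the cytosolic subunit, and the difference between the lists was not tested.

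Several members share an upstream region with a neighbour that is transcribed away from them. Within 500 bases there were 14 such divergent pairs, in 8 of which both genes were called, and 7 of these 8 moved in the same direction. These 7 include MRP4 with SHU1, 423 bases away, although YHL005C lies between them and overlaps MRP4 by 2 bases. Over all tested genes the same direction was found for 340 of 520 pairs (65.4%). That count took only adjacent genes that do not overlap, a stricter rule that would leave out MRP4 with SHU1. MRPS8 lies 203 bases from AIM36, which fell with it at a log2 fold change of -1.09, and MRP21 lies 196 bases from MAP2, a methionine aminopeptidase gene, at -0.93. The MRPS8 and MRP21 windows printed above therefore reach into the neighbouring gene. PET123 was the exception, since the proteasome gene PUP1, 412 bases away, was lower at -0.41 where PET123 rose. EHD3 lies 726 bases from KRS1, the cytosolic lysyl-tRNA synthetase gene, which fell by 2.01 on the log2 scale.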

How the data were processed

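RNA-seq counts of 6 libraries, 3 of glycerol and 3 of glucose cultures, were taken from the single table of the series, and groups and replicate numbers from the sample titles. The counts in the table the authors deposited are whole reads per gene without normalization. Per the labels the submitters' processing notes name fastp 0.20.1, HISAT2 2.2.1, featureCounts 2.0.1, DESeq2 and genome build R64, and the counting options are not given in the sources used here. The FPKM values the authors deposited were not used, nor were their columns of fold changes, p-values and group means. The number of per-sample columns without a sample was 0.

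A minimum of 10 counts in 3 or more libraries left 6330 genes, which were scaled by TMM and tested in R 4.3.3 with edgeR 4.0.16 (glmQLFit and glmQLFTest, no covariate), with Benjamini-Hochberg adjustment over all of them and a threshold of 0.05. Standard errors are the log2 fold change divided by the square root of F. The steps were tested on simulated data in which few genes changed, in both directions and without a shift in composition. That simulation cannot show how well the scaling holds here, since most genes were called. Alternatives were DESeq2 1.42.0, its size factors, library totals only, no count filter, each library left out, the replicate number as a block, and members without an overlapping gene. The shares without EHD3 were added after seeing the data. Levels per length use the gene lengths of the table. Python 3.11.15 and matplotlib 3.10.9 made the figures.

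The members and lists were chosen with earlier results of these data known. All members are accounted for. Values per library are given for the 5 highest and 5 lowest fold changes past the threshold, for the proteins the study's structures center on, and for further members and partners so that each role is shown. Positions in the subunit are those of the bacterial counterpart.

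Totals of 15289163 to 20038052 counts gave at least 187 counts per member and library. Replicates differed by more than counting noise (chi-square per degree of freedom 16.4 to 63.8), so none was taken for a copy. Deviations from the group mean correlated between same-numbered libraries at 0.171, 0.059 and 0.197 over all tested genes, and at 0.25, 0.105 and 0.289 over 5667 genes whose mean count reached 100. Number 2 missed 0.1 in the first set and no label says what a number shares, so the main fit has no block.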

Additional observations from a re-analysis of the deposited data

How the results depend on the processing

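The scaling of the libraries was the choice that mattered most. With no composition factor, 23 mtSSU transcripts rose and 3 fell rather than 15 and 9, and the median log2 fold change was 0.70 in place of 0.21. Of the mitochondria-specific proteins 11 were then higher and 1 lower, and of the bacterial homologs 2 were lower. MRPS5, MRPS18 and MRPS28 turned round, to 0.40, 0.38 and 0.055. Without RSM7 and MRP4, which overlap another gene and both rose, the difference of the class medians was -0.60 in place of -0.35. Under DESeq2's test, its size factors and no count filter every member kept its call. MRPS35, near 0, was at -0.0028 under DESeq2. With each library left out in turn, 14 to 16 members were higher and 9 to 10 lower, the median lay between 0.21 and 0.28 and the difference between -0.41 and -0.25. MRPS18 then ran from -0.26 to 0.035 and MRPS35 from -0.076 to 0.11. With the replicate number as a block (replicate block), 16 members were higher and 9 lower, the added one being MRP17 at 0.22, and no other call changed. Depth did not limit these genes, whereas VAR1 was not detectable.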
